A study of Mus musculus with 18 samples.

Results

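Adgre1, Mertk and Ikzf1 are 3 genes of immune cells, and 5 circular RNAs of mouse liver lay within them. The 3 genes were picked with earlier results of these data known. The members were then every circular RNA of the table whose start and end both fall inside the GRCm38 locus of 1 of them. This gave 5 of 434, namely 3 in Adgre1, 1 in Mertk and 1 in Ikzf1. Counts of the 5 set beside the table below are descriptions, not independent tests. A circular RNA is a loop without free ends that forms when splicing runs backwards and ties a later splice site of a transcript to an earlier one. Reads that cross this back-splice junction count it. The livers came from 18 male C57BL/6 mice, 6 weeks old at the start of the experiment, and were taken in week 22. The 6 control mice received water into the stomach and olive oil into the peritoneal cavity. The 6 CCl4 mice received water and intraperitoneal carbon tetrachloride (CCl4), a toxin that kills hepatocytes and that was given here 2 times a week to induce liver cancer. The 6 CCl4+PZH mice, called treated below, received the same injections and a daily dose by mouth of Pien Tze Huang (PZH), a medicine of the Chinese tradition that the sample labels write as PTH. Each group of 6 was drawn from 15 mice, and how the mice were picked is not given in the sources used here.

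Adgre1 encodes F4/80, an adhesion G protein-coupled receptor on the surface of macrophages that is used as their marker in the mouse, Kupffer cells of the liver included. Mertk encodes a receptor tyrosine kinase by which macrophages bind and engulf dying cells through the bridging proteins Gas6 and protein S. Ikzf1 encodes Ikaros, a zinc finger transcription factor needed for the development of lymphocytes. Resident Kupffer cells take up debris from injured hepatocytes, and monocytes and lymphocytes enter a liver under chronic injury. The measurements below are of circular RNA, not of the messenger RNA or protein of these genes, and the whole liver was sampled, so that more cells of a type and more RNA per cell cannot be told apart.

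The 3 Adgre1 circles are numbered here by coordinate (GRCm38, chromosome 17). Circle 1 spans 57406834 to 57408495 (1662 bp). Circle 2 spans 57418888 to 57420524 (1637 bp) and circle 3 spans 57419322 to 57420524 (1203 bp). Circles 2 and 3 have the same end and differ in their start by 434 bp, so that circle 3 lies within the span of circle 2. Circle 1 lies 10.4 kb away from that pair, on the side of the lower coordinates. All 3 lie in the middle stretch of the gene (57358581 to 57483529). Their starts lie at 38.6% to 48.6% of its length as counted from the lower coordinate. The Mertk circle spans 128736563 to 128738369 of chromosome 2 (1807 bp) and begins 37.6 kb after the annotated start of the gene. The Ikzf1 circle spans 11700205 to 11707904 of chromosome 11 (7700 bp), and begins 14.28 and 10.03 kb after 2 annotated transcription starts of the gene. The median span of all 434 was 4691 bp, so that Ikzf1 hosted the only one of the 5 above it. No other annotated gene contained any of the 5, and exons and introns were not used here.

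**Figure D1:**
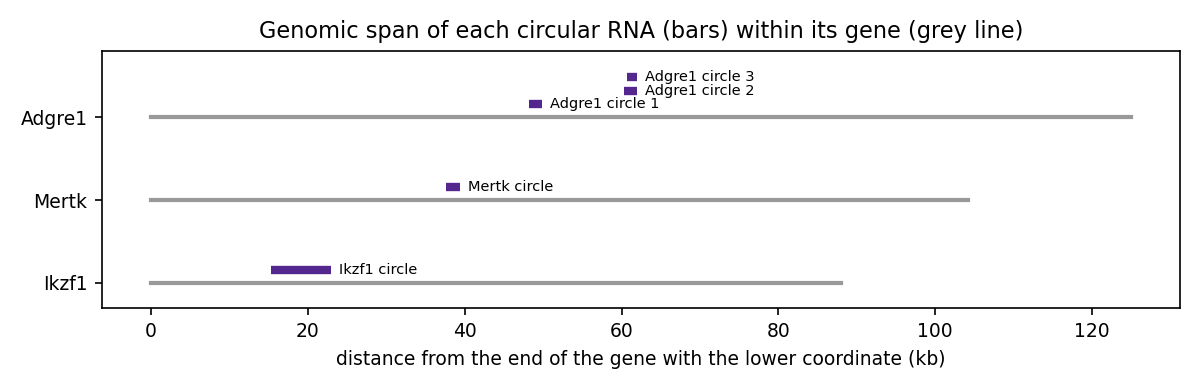
Each grey line is a gene and each purple bar the genomic span of a circular RNA, on a distance axis in kb from the gene's end of lower coordinate. Adgre1 circles 2 and 3 end at the same point, and circle 1 lies 10.4 kb from them.

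The values are in CPM, which are back-splice reads scaled to a library total set by the authors, and whole reads could be recovered from them. A library held 900 to 2840 reads over the whole table, and 3 reads, the limit that a value of 0 allows, were worth 0.135 CPM (control 3) to 0.918 CPM (control 2). Summed CPM ran from 40.4 (control 3) to 550 (control 4), both in the control group and both, with control 2, deposited later than the other 15 libraries. Every circular RNA of the table was above 0 in at least 9 libraries. Of the 25803 recovered reads, 268 (1.04%) belonged to the 5 circles. Controls held 42 of them (4.41 per 1000 table reads of the group), CCl4 livers 126 (17.1 per 1000) and CCl4+PZH livers 100 (11.3 per 1000). Of these, 2, 24 and 6 were of Adgre1 circle 1, which was above 0 in 1 control. Its contrast with controls is not independent of the limit of 9 libraries.

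By mean level over all 18 livers, Adgre1 circle 3 stood highest of the 5, at 0.746 ± 0.648 CPM (SD, n = 18), rank 62 of 434. The Ikzf1 circle followed at 0.508 ± 0.444 CPM (rank 117), then the Mertk circle at 0.381 ± 0.609 CPM (rank 162), Adgre1 circle 1 at 0.235 ± 0.347 CPM (rank 294) and Adgre1 circle 2 at 0.117 ± 0.157 CPM (rank 421). Each value counts reads over 1 junction, so the length of a circle does not enter the order. Neighbours in this order differed by less than the SD of either, and the order changed with the group. By the means of controls, Mertk (0.364 CPM) stood above Adgre1 circle 3 (0.329 CPM), and Adgre1 circle 1 stood last. By the means of CCl4 livers, Adgre1 circle 1 (0.519 CPM) stood above Mertk (0.449 CPM), whereas Adgre1 circle 3 was highest in both CCl4 groups. Adgre1 circle 3 was above 0 in 17 livers, Ikzf1 in 14, Mertk in 11, Adgre1 circle 1 in 10 and Adgre1 circle 2 in 9, the least that the table holds.

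**Figure D2:**
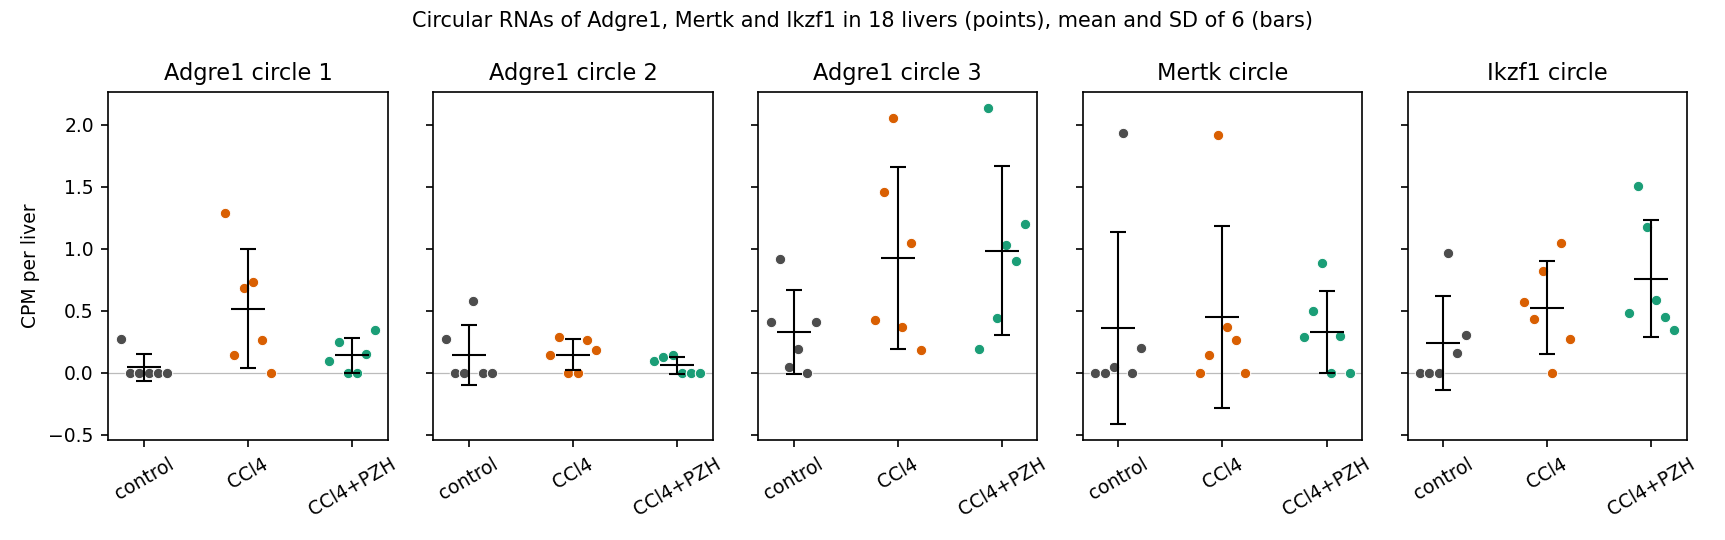
Each point is the CPM value of 1 liver, and the bars give the mean and SD of the 6 livers of a group, with 1 panel per circular RNA. Adgre1 circle 1 was above 0 in 1 of 6 controls and 5 of 6 CCl4 livers, while single livers at 1.94 and 1.92 CPM stand over the rest for Mertk.

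In CCl4 livers against controls, which asks what differs in the cancer model, by limma none of the 5 circles passed the threshold of adjusted p under 0.05, while 3 of all 434 (0.691%) did. All 5 had higher fitted values in CCl4, with a median difference of 1.02 on the log2(CPM + 0.137) scale, 0.137 CPM being the pseudocount. Of all 434, 37.1% were above 0 and the median was −0.28. With values scaled to each library's own table sum, 48.2% were above 0, the median was −0.029, 1.15% passed, and all 5 circles were again above 0 with none passing. Relative to the median of all 434, 3 of the 5 lay at least 1 higher on the log2 scale (Adgre1 circles 1 and 3 and Ikzf1), as did 8.06% of the table. As the genes were picked with earlier results known, these shares describe the 5 and are no independent test. The groups overlapped for all 5, and over the table they did not overlap for 0.691%.

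Adgre1 circle 1 had the largest of these differences. Control 1, at 0.272 CPM or 2 reads, was the only control with a value above 0. In CCl4 livers its lowest value was 0 (CCl4 8), its median 0.474 CPM and its highest 1.29 CPM (CCl4 1, 9 reads). The group means were 0.0453 ± 0.111 CPM in controls and 0.519 ± 0.477 CPM in CCl4 (SD, n = 6 each). The difference by limma was 1.61 on the log2 scale (95% interval 0.40 to 2.82, unadjusted p = 0.00895, adjusted p = 0.259), the 15th smallest p of 434. By limma on CPM it was the only member under an unadjusted 0.05, as were 8.29% of the table in either direction and 2.07% with a higher value in CCl4. With table scaling circle 3 (limma unadjusted p = 0.0137, adjusted p = 0.247) and Ikzf1 (0.0242 and 0.324) were also under it, as were 49 of all 434. Both were under it by edgeR with TMM and by DESeq2, and neither by edgeR with implied totals. Pooled over livers, circle 1 had 24 of 7386 table reads in CCl4 against 2 of 9529 in controls, a ratio of 15.5 with an exact interval of 3.84 to 135. That interval covers counting error only and not the spread between mice. With only the 3 controls of the first deposit the limma difference was 1.35 (adjusted p = 0.658). The circle was above 0 in 1 control, 5 CCl4 and 4 treated livers. No circle was listed with fewer than 9 livers above 0. A circle held by 1 control was thus listed only if most livers given CCl4 held it. Contrasts of circle 1 with controls are not independent of that listing.

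Adgre1 circle 3, the most abundant, ran from 0 to 0.918 CPM in controls (median 0.300) and from 0.184 to 2.06 CPM in CCl4 livers (median 0.739). It was above 0 in 5 of 6 controls and in 6 of 6 CCl4 livers, with 12 and 45 reads. CCl4 2, 4 and 7 lay above all controls, and the other 3 CCl4 livers lay among them. Means were 0.329 ± 0.337 and 0.924 ± 0.733 CPM (SD, n = 6 each), and limma gave 1.20 on the log2 scale (95% interval −0.23 to 2.64, adjusted p = 0.663). The pooled share of reads was 4.84 times that in controls (exact interval 2.52 to 10.05, counting error only). Adgre1 circle 2, which shares its end, was above 0 in 2 controls (controls 1 and 4) and in 4 CCl4 livers, with no value over 3 reads in any library. Its means were 0.142 ± 0.241 CPM in controls and 0.147 ± 0.126 CPM in CCl4 (SD, n = 6 each; limma log2 0.25, 95% interval −0.67 to 1.17, adjusted p = 0.874). That value was 0.63 with table scaling, 1.02 by DESeq2, 0.59 without control 4 and 0.0999 without CCl4 2. The pooled share of reads was 2.06 times that in controls (exact interval 0.595 to 8.02).

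**Figure D3:**
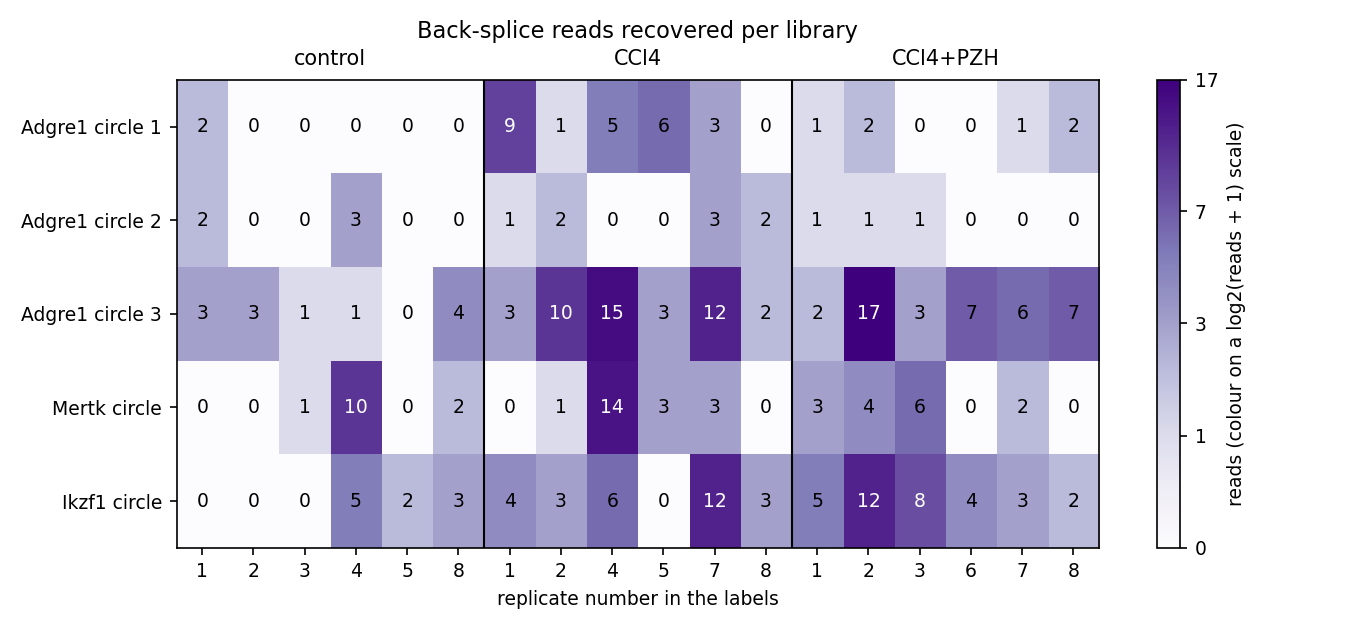
Each cell gives the whole back-splice reads recovered for 1 circular RNA (rows) in 1 library (columns, by replicate number within a group), with colour on a log2(reads + 1) scale. No control holds more than 4 reads of any Adgre1 circle, while CCl4 4 holds 15 and CCl4 7 holds 12 of circle 3.

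As a share of a library's own table reads, the 3 Adgre1 circles summed to 0 to 5.30 per 1000 in controls. They summed to 4.30 to 17.9 per 1000 in CCl4 livers and to 2.34 to 10.7 per 1000 in treated ones. Means were 2.06 ± 1.80, 10.4 ± 4.79 and 5.53 ± 2.94 per 1000 in that order (SD, n = 6 each). Control 1, at 5.30, was the only control above the lowest CCl4 liver, CCl4 8. In summed CPM, which also carries the library totals, the means were 0.516 ± 0.429, 1.59 ± 0.804 and 1.19 ± 0.765 CPM (SD, n = 6 each). Circle 3 made up 63.2% of the 19 Adgre1 reads in controls, 58.4% of the 77 reads with CCl4 and 82.4% of the 51 reads with CCl4+PZH. Circle 1 made up 10.5%, 31.2% and 11.8% of them. Circle 3 had the most reads of the 3 in 13 of 18 libraries, circle 1 in 2 (CCl4 1 and 5), and circle 2 in 1 (control 4). The sums and shares include circle 1, which was above 0 in 1 control, and its contrast with controls is not independent of the listing. Circle 3 alone had means of 1.38 ± 1.04, 6.14 ± 4.70 and 4.53 ± 2.76 per 1000 in the same order (SD, n = 6 each). These sums and shares were not tested.

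**Figure D4:**
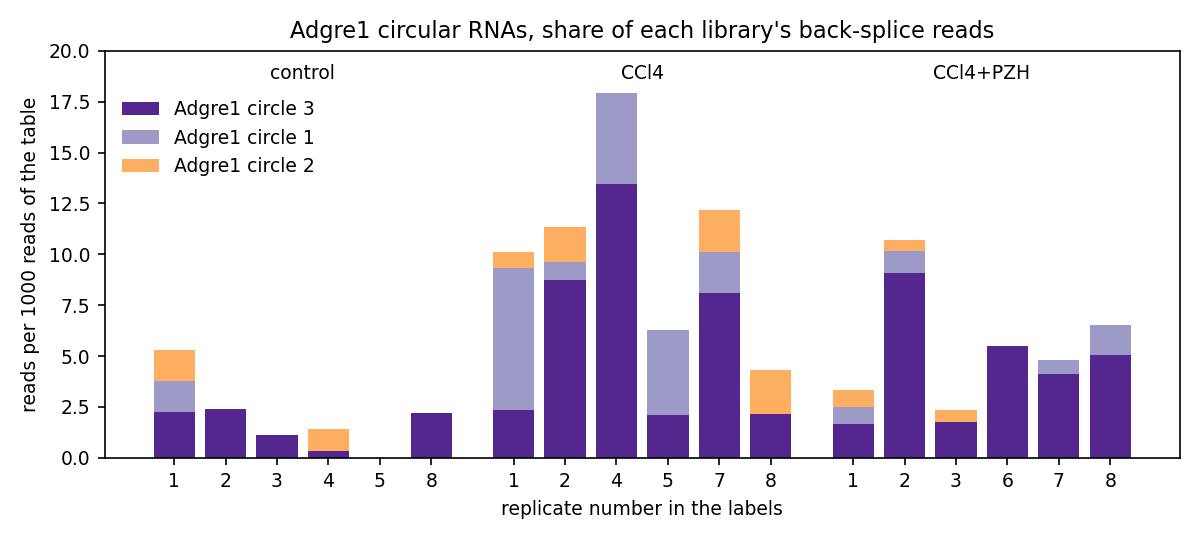
Bars stack the 3 Adgre1 circular RNAs as reads per 1000 of each library's back-splice reads in the table, by replicate number within a group. The sum ran from 4.30 to 17.9 in CCl4 livers and from 0 to 5.30 in controls, and circle 1 takes its largest share in CCl4 1 and 5. The contrast of circle 1 with controls, which enters the sum, is not independent of its listing.

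The Mertk circle was above 0 in 3 of 6 controls and in 4 of 6 CCl4 livers. In each group 1 liver stood far above the others: control 4 at 1.94 CPM (10 reads), with the next control at 0.203 CPM, and CCl4 4 at 1.92 CPM (14 reads), with the next at 0.367 CPM. Means were 0.364 ± 0.774 and 0.449 ± 0.735 CPM (SD, n = 6 each), and limma gave 0.46 on the log2 scale (95% interval −0.87 to 1.79, adjusted p = 0.862). Without control 4 the difference was 1.05, and without CCl4 4 it was −0.046, so that these single livers set its size and its sign. Over the 3 controls of the first deposit the mean was 0.0678 ± 0.117 CPM (SD, n = 3), and over controls 2, 3 and 4 it was 0.660 ± 1.10 CPM (SD, n = 3). The latter mean rests on control 4, as controls 2 and 3 stood at 0 and 0.0449 CPM.

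The Ikzf1 circle was at 0 in controls 1, 2 and 3 and reached 0.968 CPM in control 4 (5 reads), with a median of 0.0816 CPM. In CCl4 livers it ran from 0 (CCl4 5) to 1.05 CPM (CCl4 7, 12 reads), with a median of 0.505 CPM. In CPM, only CCl4 7 among CCl4 livers exceeded control 4, the library with the highest summed CPM. Per 1000 table reads, control 4 stood at 1.76, control 8 at 1.63 and control 5 at 1.46. On that scale CCl4 5 was at 0, and all other CCl4 livers, from 2.62 to 8.10, lay above every control. Means were 0.239 ± 0.377 and 0.526 ± 0.377 CPM (SD, n = 6 each), with a limma log2 difference of 1.02 (95% interval −0.37 to 2.41, adjusted p = 0.704). With table scaling the limma difference was 1.43 (adjusted p = 0.324). The pooled share of reads was 3.61 times that in controls (exact interval 1.70 to 8.34, counting error only).

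In CCl4+PZH livers against CCl4 livers, which asks what the treatment changes, none of the 5 passed (0% of the 434 did). By limma, 5.53% of the table, 4.38% with a higher value in CCl4+PZH, had an unadjusted p under 0.05, and none of the 5 had. Their log2 differences had a median of 0.011, and 3 of 5 were above 0, while the table had a median of 0.23 with 69.8% above 0. With table scaling 1 of 5 was above 0, that of Ikzf1, and 51.4% of the table were. None of the 5 lay at least 1 above the median of all, as 5.99% of the table did. On the lower side, Adgre1 circle 1 lay at −1.24 relative to that median, at percentile 2.76 of the table's differences. The groups overlapped for all 5, as they did for all but 0.23% of the table. Adgre1 circle 1 was above 0 in 4 of 6 treated livers, none of which exceeded 2 reads, and its highest value was 0.344 CPM. CCl4 1, 4 and 5 lay above all treated livers. The mean of 0.140 ± 0.138 CPM (SD, n = 6) lay below that in CCl4, with a limma log2 difference of −1.01 (95% interval −2.22 to 0.19, adjusted p = 0.804). The pooled reads, 6 of 8888, were 0.208 times the share in CCl4 (exact interval 0.0695 to 0.522, counting error only).

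Adgre1 circle 2 held 3 reads in all treated livers, 1 each in CCl4+PZH 1, 2 and 3, and its mean was 0.0617 ± 0.0694 CPM (SD, n = 6; limma log2 against CCl4 −0.45, 95% interval −1.37 to 0.47, adjusted p = 0.918). Adgre1 circle 3 was above 0 in 6 of 6 treated livers, from 0.194 to 2.14 CPM (CCl4+PZH 2, 17 reads), with a median of 0.969 CPM. Its mean of 0.986 ± 0.679 CPM (SD, n = 6) gave a limma log2 difference from CCl4 of 0.15 (95% interval −1.29 to 1.59, adjusted p = 0.992), which turned to −0.25 with table scaling. Its pooled share of reads was 0.776 times that in CCl4 (exact interval 0.497 to 1.21, counting error only). The intervals of the 3 circles overlap, and the difference between them was not tested.

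The Mertk circle ran from 0 to 0.882 CPM in treated livers, with a mean of 0.330 ± 0.333 CPM (SD, n = 6) and no single liver far above the rest. Its log2 difference from CCl4 was 0.011 by limma (95% interval −1.32 to 1.34, adjusted p = 0.992), although its mean CPM was the lower one, and table scaling gave −0.17. The Ikzf1 circle was above 0 in 6 of 6 treated livers, from 0.344 to 1.51 CPM (CCl4+PZH 2, 12 reads) with a median of 0.538 CPM. Its mean of 0.760 ± 0.471 CPM (SD, n = 6) gave a limma log2 difference of 0.57 (95% interval −0.82 to 1.96, adjusted p = 0.953). Without CCl4 5, the only CCl4 liver at 0, the difference was 0.17, and with table scaling it was 0.19. As a share of table reads it was 3.66 ± 1.83 per 1000 in treated and 3.74 ± 2.74 per 1000 in CCl4 livers (SD, n = 6 each). For Adgre1 circle 3 and Mertk the intervals reach past a 2-fold change in both directions.

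Against controls, which asks what separates treated from normal livers, none of the 5 passed in CCl4+PZH livers, and 0.23% of the table did. These values share the CCl4+PZH livers with the comparison above and the controls with the first. Of the 5, 4 had log2 differences above 0, with a median of 0.60, where the table had a median of 0.023 with 52.3% above 0. With table scaling 4 of 5 were again above 0, as were 50.7% of the table. Ikzf1 and Adgre1 circle 3 lay at least 1 above the median of all, as did 7.37% of the table. The groups overlapped for all 5, and did not for 0.461% of the table. Ikzf1 had the largest difference. In CPM, its 6 treated livers all exceeded controls 1, 2, 3, 5 and 8, the highest of which was 0.305 CPM. Only control 4 lay among them. Per 1000 table reads, CCl4+PZH 8 (1.45) lay below controls 4 (1.76), 5 (1.46) and 8 (1.63). The other treated livers lay above all controls on that scale. The limma log2 difference was 1.59 (95% interval 0.20 to 2.98, unadjusted p = 0.0249, adjusted p = 0.763), the 9th smallest p of the table, in which 5.07% had an unadjusted p under 0.05, 3.23% with a higher value in CCl4+PZH. Without control 4 it was 1.998 (limma adjusted p = 0.495), and with the first-deposit controls alone 1.62 (adjusted p = 0.643). Pooled reads were 34 of 8888 against 10 of 9529, a ratio of 3.65 (exact interval 1.76 to 8.27, counting error only).

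Adgre1 circle 3 had the next largest difference, 1.35 on the log2 scale (limma 95% interval −0.083 to 2.79, adjusted p = 0.763). CCl4+PZH 2, 6 and 8 lay above the highest control. Mertk had 0.47 (95% interval −0.86 to 1.80, adjusted p = 0.925), which was 1.06 without control 4 and 0.17 without CCl4+PZH 3. Adgre1 circle 1 had 0.60 (95% interval −0.61 to 1.80, limma adjusted p = 0.882). Adgre1 circle 2 was the only one below 0, at −0.20 (95% interval −1.12 to 0.72, limma adjusted p = 0.976), and it turned to 0.15 without control 4. Counted by presence, meaning any value above 0, no circle passed Fisher's exact test in any of the 3 comparisons. The smallest exact p was 0.0801, for Adgre1 circle 1 in 5 of 6 CCl4 livers and 1 of 6 controls (adjusted p = 1), and Ikzf1 in 6 of 6 treated livers and 3 of 6 controls had an exact p of 0.182. A circle held by 1 control was listed only if most livers given CCl4 held it. The contrast of circle 1 is thus not independent of the listing.

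**Figure D5:**
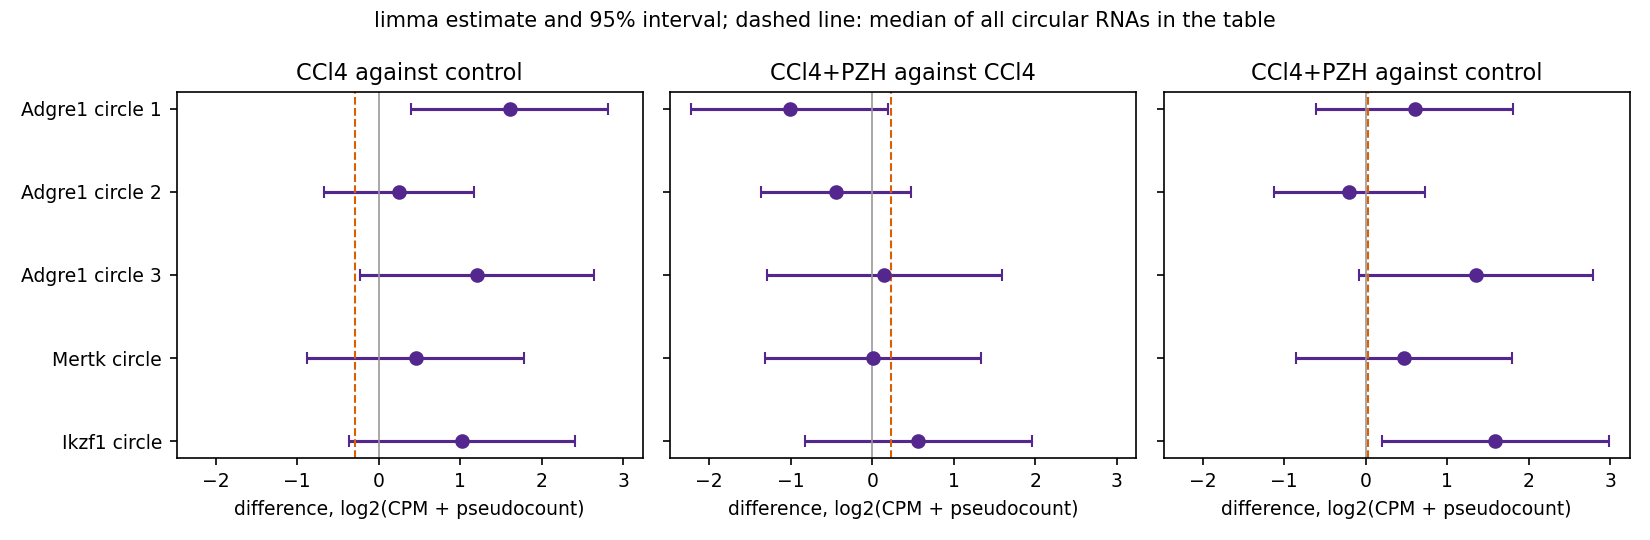
Points are limma differences on the log2(CPM + pseudocount) scale and bars their 95% intervals, for the 3 comparisons, with the median of all 434 as a dashed line. The intervals of Adgre1 circle 1 in CCl4 against control (0.40 to 2.82) and of Ikzf1 in CCl4+PZH against control (0.20 to 2.98) lie above 0 before adjustment over the table.

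Single livers were high for several of the 5 at once. CCl4 4 held 40 of the 126 reads of its group, CCl4 7 held 33, and CCl4+PZH 2 held 36 of the 100 reads of its group and had the most table reads among treated livers (1869). Control 4 held 19 of 42 and had the most table reads of all (2840). CCl4 4, by contrast, had 1116 table reads, fewer than in 4 of the other 5 livers of its group, and the part of library size in these sums was not tested. On the scale of reads per 1000 table reads, Spearman's rho over the 18 libraries was 0.51 for Adgre1 circles 1 and 3, 0.45 for Mertk and Ikzf1, and 0.0055 for Adgre1 circles 2 and 3. These are descriptions over libraries that differ in depth and hold a 0 for many circles.

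The circular RNAs most like each member on that scale lay in other genes. They were hosted by Rasa2 (rho 0.71) and Snx5 (0.62) for Adgre1 circle 1, by Mindy3 and Nhlrc2 (0.58 each) for circle 2, and by Vrk2 (0.70) for circle 3. For Mertk they were those of Rbm39 (rho 0.71) and Ipo8 (0.69). For Ikzf1 they were one outside annotated genes on chromosome 3, from 5860581 to 5860757 (rho 0.71), and that of Bbs9 (0.63). On the CPM scale Rasa2 and Snx5 again led for circle 1, Mindy3 for circle 2, Vrk2 for circle 3 and Rbm39 for Mertk, while Med13l (0.74) led for Ikzf1.

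Few other immune genes hosted a circular RNA in the table. Of 60 genes listed as macrophage, Kupffer cell and monocyte markers, Adgre1 and Mertk were the only hosts. Of 59 lymphocyte genes Ikzf1 was the only one, and of 29 adhesion G protein-coupled receptor genes Adgre1 was. A marker such as Cd68, Clec4f, Ptprc or Cd3e thus gave no circular RNA to set beside the 5. The 1 circle of 45 leukocyte signalling genes, in Nfkb1, a subunit of NF-kappaB, had a log2 difference of 0.58 in CCl4 against control (limma adjusted p = 0.861). That of 24 neutrophil and dendritic cell genes, in Tcf4, a transcription factor that other cells also use, had 1.04 (limma adjusted p = 0.535).

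Of 48 genes for the clearance of dying cells, the pathway of Mertk, 5 others hosted 8 circles. None passed in any comparison. In CCl4 against control 4 were higher and 4 lower, with a median of 0.15. By edgeR with TMM 6 were higher (median 0.72), with table scaling 5 (median 0.31) and by DESeq2 again 4 (median 0.46). Dock4, an activator of the small GTPase Rac1, had −1.50 (limma adjusted p = 0.321). Crk, an adaptor that couples engulfment receptors to Rac1, had 1.18 (limma adjusted p = 0.403), and Vav3 (109525869 to 109528384 of chromosome 3), another Rac activator, had 0.96 (limma adjusted p = 0.702). In CCl4+PZH against CCl4 the median of the 8 was −0.33, with Ptk2, the focal adhesion kinase, at 0.95 (limma adjusted p = 0.851), and against control it was 0.31, with the cholesterol exporter Abca1 (53127597 to 53133015 of chromosome 4) at −1.03 (limma adjusted p = 0.844). Of 40 genes of the Ikaros family and its chromatin partners, 4 others hosted 1 circle each, 2 higher and 2 lower in each comparison by limma, and none passed. Under other scalings the split moved in CCl4 against control, to 3 higher by edgeR with TMM and to 1 higher by DESeq2. Eed, a subunit of Polycomb repressive complex 2, had 0.58 in CCl4 and 1.08 in CCl4+PZH against control (limma adjusted p = 0.862 and 0.882), although its mean CPM in CCl4 (1.46) lay below that in controls (1.86). Rbbp4, a histone-binding subunit of the NuRD complex, had −0.65 in CCl4+PZH against CCl4 (limma adjusted p = 0.918).

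Most circles of hepatocyte genes had differences of the opposite sign from those of the 5 in CCl4, though none passed (1 did with table scaling). Of 11 such circles in 10 of 31 listed genes, 10 were lower in CCl4 than in control (8 by edgeR with TMM and by DESeq2), as were 273 of all 434. Their median was −1.45 (−1.22 with table scaling). Among them were those of Mlxipl, a regulator of fat synthesis (−2.15, limma adjusted p = 0.155), and Pon1, a paraoxonase (−2.04, limma adjusted p = 0.199). In CCl4+PZH against CCl4, 10 of the 11 were higher, with a median of 0.88, as were 69.8% of the table. This list too was chosen with earlier results of these data known. The 1 circle of 35 stellate cell and matrix genes, in Mmp15, a membrane-bound metalloproteinase, had 0.48 in CCl4 against control (limma adjusted p = 0.862), and the 24 endothelial and 16 cholangiocyte and red blood cell genes hosted 0. The part of cell composition in the values of the 5 was not tested.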

How the data were processed

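The authors deposited 1 table of CPM values for 434 circular RNAs, named by position without strand. Their processing, per the submitters' processing notes, named GRCm38 and the tools Bowtie2 2.5.1, HISAT2 2.2.1, StringTie 2.1.5, cutadapt 4.2 and FastQC 0.11.9. Not given in the sources used here are the circular RNA caller, the CPM total and the row filter. Libraries were depleted of ribosomal RNA and read for 150 bp from both ends, per the labels' protocols. Read counts were recovered from the deposited CPM: 100% of 7812 values came within 0.1 reads of whole numbers.

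Hosts were genes of RefSeq GRCm38.p6 containing both ends (the shortest protein-coding one). The members and gene lists were chosen with earlier results of these data known. Named circles were the 5 members, at most 3 per list by size of difference, and the 2 most alike per member by Spearman's rho, of which 1 is not reported here.

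limma 3.58.1 (R 4.3.3) was fitted to log2(CPM + 0.137), the pseudocount being the median of the libraries' smallest non-zero values, over 18 libraries, with 3 group means and a trend on mean level. All tests are two-sided and Benjamini-Hochberg adjusted over the 434, none filtered out, with a threshold of 0.05. Presence was tested by Fisher's exact test. Read ratios have 95% exact (Clopper-Pearson) intervals. Alternatives (other pseudocounts, a filter, scalings, weights, a replicate block, left-out libraries) included DESeq2 1.42.0 and edgeR 4.0.16, run on recovered reads. The scripts were tested on simulated data. Python 3.11.15 did the rest (scipy 1.17.1, pandas 2.3.3, numpy 2.4.6, matplotlib 3.10.9).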

Additional observations from a re-analysis of the deposited data

Results flagged for a closer look

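Of 15 groups of 6 values (5 circles in 3 groups), 4 had 1 mouse whose gap to the nearest other exceeded the 95% limit of Dixon's test, which chance passes in about 1 of 20 groups of normally distributed values. For Adgre1 circle 1, control 1 stood at 0.272 CPM, 2 reads, against 0 in the other 5 controls. With the others all at 0 any value would pass, and 2 reads lie within the 3 reads that a 0 allows, so it tells nothing about that liver. For Mertk, control 4 stood at 1.94 CPM with the next control at 0.203 CPM, and CCl4 4 at 1.92 CPM with the next CCl4 liver at 0.367 CPM. For Ikzf1, control 4 stood at 0.968 CPM with the next control at 0.305 CPM. Control 4 also had the most table reads (2840) and the highest summed CPM (550) of the 18 libraries.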

How the results depend on the processing

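No circle of the 5 passed in any comparison under 15 other settings (3 circles were not listed under the filter of 12 libraries above 0) or with each of 18 libraries left out. In CCl4 against control the lowest adjusted p of any was 0.131 (Adgre1 circle 1, values scaled to the table sum, log2 1.72); edgeR with TMM gave that circle 3.32 (adjusted p = 0.237) and DESeq2 3.27 (adjusted p = 0.338). In CCl4 against control all 5 were above 0 under table scaling, quantile normalization, edgeR with both totals and DESeq2. In CCl4+PZH against CCl4, Adgre1 circle 3 had −0.25 with table scaling, −0.26 with quantile normalization and −0.22 by edgeR with TMM, and −0.13 to 0.45 with a library left out. Mertk had −0.019 with 2 times the pseudocount, −0.047 with 1 CPM, −0.17 with table scaling, −0.20 with quantile normalization, −0.60 and −0.40 by edgeR with TMM and with implied totals, −0.89 by DESeq2, and −0.29 to 0.51 with a library left out, but 0.78 with the replicate block. Against control, Mertk in CCl4 ran from −0.046 to 1.05 with a library left out, and in CCl4+PZH it was −0.018 by edgeR with implied totals, 1.29 with the replicate block and 0.17 to 1.06 with a library left out. Over all settings Adgre1 circle 2 in CCl4 against control ran from 0.022 to 1.02, and Ikzf1 in CCl4+PZH against CCl4 from 0.14 to 0.79. Adgre1 circle 2 in CCl4+PZH against control was 0.069 with array weights and −0.33 to 0.15 with a library left out, and the difference in its number of libraries was −2 when 2 or more reads were needed (0 against 2), and 1 otherwise (3 against 2).

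Over the table, calls in CCl4 against control numbered 3, and 1 with a pseudocount of 1 CPM, 1 with the filter, 5 with table scaling (3 higher), 5 by edgeR with TMM (4 higher), 1 by edgeR with implied totals, 0 by the exact rank test (24 at an unadjusted p under 0.05), and 1 to 6 with a library left out. In CCl4+PZH against control they numbered 1, and 0 with the filter, 3 with array weights, 2 by edgeR with either total, 0 by the exact rank test (13 unadjusted), and 1 to 3 with a library left out. In CCl4+PZH against CCl4 they numbered 0 throughout. With the replicate block 1 was called in CCl4 against control and the other 2 counts were the same. The numbers were taken to name mice. Deviations of 13 same-numbered pairs correlated at −0.15 to 0.079, and 1 of 17 libraries correlated best with its own number. With so few reads per value, this check cannot tell whether same-numbered mice share anything. Values of 1 to 3 reads limit all of these comparisons.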
